A study of Rattus norvegicus with 48 samples.

Results

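The miRNAs of serum were compared with those of ulna bone in placebo-treated Zucker Diabetic Fatty (ZDF) rats. These are the libraries labelled group ZDF and treatment Placebo, 5 from serum and 4 from ulna bone, which makes 9 of the 48 libraries of the series. ZDF fa/fa rats lack a working leptin receptor, become obese and develop type 2 diabetes, and serve as a model of diabetic bone disease. All were male, received a placebo for 12 weeks from an age of 11 weeks, ate a high-fat, high-carbohydrate chow and carried a surgical defect of the femur, as did the placebo-treated WT rats (Zucker lean, ZDF +/+) set beside them, which gave 5 serum and 4 bone libraries. According to the methods the bones came from rats that also gave serum, but the labels do not say which bone goes with which serum, and the comparison is unpaired. P-values measure the spread between these libraries.

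MiRNAs are short RNAs that are cut from the 2 arms of a hairpin precursor, named 5p and 3p, and that pair with messenger RNAs mainly through the seed, bases 2 to 8. Serum holds no cells of its own: its miRNAs are released by blood cells and by organs such as liver, gut and muscle, and are carried in vesicles or bound to proteins or lipoproteins. A homogenized ulna holds osteocytes, osteoblasts and osteoclasts, together with marrow, vessels, cartilage and muscle left on the bone. In such bulk samples, fewer cells of a type and less RNA per cell cannot be told apart. The question was which miRNAs of the skeleton are also seen in the circulation, and which circulating miRNAs are not seen in bone.

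Of the 202 miRNAs tested, 182 had a mature sequence in RefSeq (rat assembly GRCr8). The following are shown because the comparison turns on them, first those that led in serum, then those that led in bone. Capitals mark the seed.
miR-122-5p: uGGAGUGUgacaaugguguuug
miR-192-5p: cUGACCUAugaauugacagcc
miR-375-3p: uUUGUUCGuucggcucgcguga
miR-92a-3p: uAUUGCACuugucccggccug
miR-1-3p: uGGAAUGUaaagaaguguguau
miR-1b: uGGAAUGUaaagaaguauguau
miR-206-3p: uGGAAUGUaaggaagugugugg
miR-133a-3p: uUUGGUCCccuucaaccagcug
miR-133b-3p: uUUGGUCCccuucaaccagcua
miR-196b-5p: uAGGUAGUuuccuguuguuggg
miR-199a-5p: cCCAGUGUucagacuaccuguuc

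MiR-1-3p, miR-1b and miR-206-3p carry the same seed. Over 22 bases miR-1-3p and miR-1b differ at 1 base, and so do miR-133a-3p and miR-133b-3p. The authors allowed 1 mismatch to miRBase, so reads of such pairs may have been shared between them and their separate levels are uncertain.

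MiRNAs took a smaller part of the reads in serum than in bone. In serum 0.687, 1.06, 1.57, 1.46 and 1.04% of the reads of a library were counted on miRNAs, and in bone 4.87, 21.5, 4.99 and 7.92% (exact permutation test on the log2 scale, p = 0.00794, the smallest p that 5 against 4 libraries allow). Synthetic controls, added at extraction to serum alone, took 307319 to 574298 of the 4674741 to 8755690 reads of a serum library. The serum libraries held 48637 to 124422 miRNA reads, and the bone libraries 116097 to 1398702. One read was worth 9.23 to 19.6 CPM (counts per 1000000 miRNA reads) in serum and 0.864 to 7.94 CPM in bone, so low levels were resolved more finely in bone. The deepest library, bone replicate 2, stood apart: miR-133a-3p of striated muscle took 33.1% of its miRNA reads, and results that rest on muscle miRNAs are given with and without it. Thinned to 48637 reads, the depth of the shallowest library, serum held 281 ± 10.1 miRNAs (SD, n = 5) and bone 299.8 ± 7.54 (SD, n = 4, exact permutation p = 0.0159). Without bone replicate 3 this difference no longer passed (-14.9 miRNAs, exact permutation p = 0.0536). The 10 most abundant miRNAs of a library took 59.5 ± 3.26% of the miRNA reads in serum and 55.2 ± 3.36% in bone, which did not pass the test (exact permutation p = 0.135).

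Most miRNAs that could be tested differed between the tissues. Of 763 miRNAs listed, 555 had at least 1 read in these 9 libraries, of which 375 were read in both tissues, 155 in bone only and 25 in serum only. The 202 that passed the filter on low counts were tested, and 150 of them differed at FDR < 0.05 (74.3%): 72 were higher in serum (35.6%) and 78 higher in bone (38.6%). The groups did not overlap in CPM for 142 of the 202 (70.3%). The median log2 fold change over all 202, serum over bone, was -0.21. Of the 150, 108 differed at least 4-fold by the fitted value. The filter asked for 86.1 CPM in 4 libraries. It was met in at least 4 libraries of both tissues by 115 of the miRNAs, of which 38 were called higher in serum and 44 higher in bone. A further 39 passed through serum alone and 38 through bone alone, and those had to be high in that tissue to be tested. Of the 155 miRNAs read in bone only, 26 were read in all 4 bone libraries, led by miR-411-5p (337 reads), miR-136-5p (151) and miR-499-3p (134). Of the 25 read in serum only, 6 were read in all 5 serum libraries, led by miR-122-3p (165 reads), miR-6216 (51) and miR-192-3p (28).

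Serum was led by miR-191a-5p, which is expressed in many tissues, and by miRNAs that are abundant in blood cells. MiR-191a-5p was first in every serum library, at 108724, 154643, 156105, 142072 and 73662 CPM in replicates 1 to 5, against 13979, 9528, 12587 and 11992 CPM in bone replicates 1 to 4 (log2 fold change 3.40 ± 0.32 (SE), FDR = 2e-07). The red cell miRNA miR-486 stood at 66032, 136778, 47508, 108136 and 59409.8 CPM in serum and 5905, 3371, 2589 and 4396 CPM in bone (log2 fold change 4.36 ± 0.42 (SE), FDR = 2.25e-07). MiR-92a-3p, a member of the miR-17-92 cluster, had 72829.5, 96662, 83538, 75550 and 57692 CPM in serum and 4659.6, 4522, 2986 and 5686 CPM in bone (log2 fold change 4.11 ± 0.32 (SE), FDR = 5.23e-08). The lowest serum library lay above the highest bone library for all 3. MiR-16-5p, miR-25-3p, miR-93-5p, miR-19b-3p and miR-451-5p were also among the 10 highest of serum and were higher there, with log2 fold changes of 2.03 to 2.64. MiR-21-5p ranked among the 10 highest in both tissues. Its serum values were 49156, 43790.1, 37266, 58045 and 58996 CPM and its bone values 34466, 15364, 24903 and 39953 CPM, which overlapped (log2 fold change 0.79 ± 0.31 (SE), FDR = 0.0316). This call was lost without serum replicate 4 or without any 1 of the bone libraries, at 0.58 (FDR = 0.186) without bone replicate 1, 0.85 (FDR = 0.051) without serum replicate 4, 0.62 (FDR = 0.0779) without bone replicate 2, 0.38 (FDR = 0.39) without bone replicate 3 and 0.75 (FDR = 0.0804) without bone replicate 4.

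MiR-133a-3p, a muscle miRNA that promotes the proliferation of muscle precursors, and miR-26a-5p, which is expressed in many differentiated tissues, had the highest mean levels of bone. The bone values of miR-133a-3p were 100734, 399979, 107459 and 72594 CPM and its serum values 10943, 2618, 6892, 3132 and 1018 CPM (log2 fold change -5.11 ± 0.68 (SE), FDR = 5.52e-06). Without bone replicate 2 the difference was -4.27, FDR = 1.55e-08. MiR-26a-5p had 114577, 62736, 78704 and 87137 CPM in bone and 7132, 4788, 7852, 4914 and 4629 CPM in serum (log2 fold change -3.87 ± 0.31 (SE), FDR = 5.24e-08). MiR-99a-5p had 44672, 24848, 35354 and 38187 CPM in bone and 3339.9, 976, 2362, 1441 and 1988 CPM in serum (log2 fold change -4.15 ± 0.37 (SE), FDR = 1.25e-07). The groups lay apart for each of these 3. MiR-26a-5p was the first miRNA in bone replicates 1 and 4 and miR-133a-3p in replicates 2 and 3, and without replicate 2 their bone means were level at 93473 ± 18757 and 93596 ± 18496 CPM (SD, n = 3). MiR-30a-5p, let-7i-5p, miR-101a-3p and miR-378a-3p, the last encoded within a gene of mitochondrial metabolism, were 1.77 to 2.17 higher in bone on the log2 scale without overlap. MiR-143-3p of smooth muscle was called with overlap: serum replicate 1 reached 59941 CPM, above bone replicates 2 and 3 (log2 fold change -1.49 ± 0.51 (SE), FDR = 0.0148). The difference was -1.04 (FDR = 0.105) without serum replicate 2, -1.02 (FDR = 0.105) without serum replicate 4 and -1.07 (FDR = 0.113) without serum replicate 5.

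**Figure D1:**
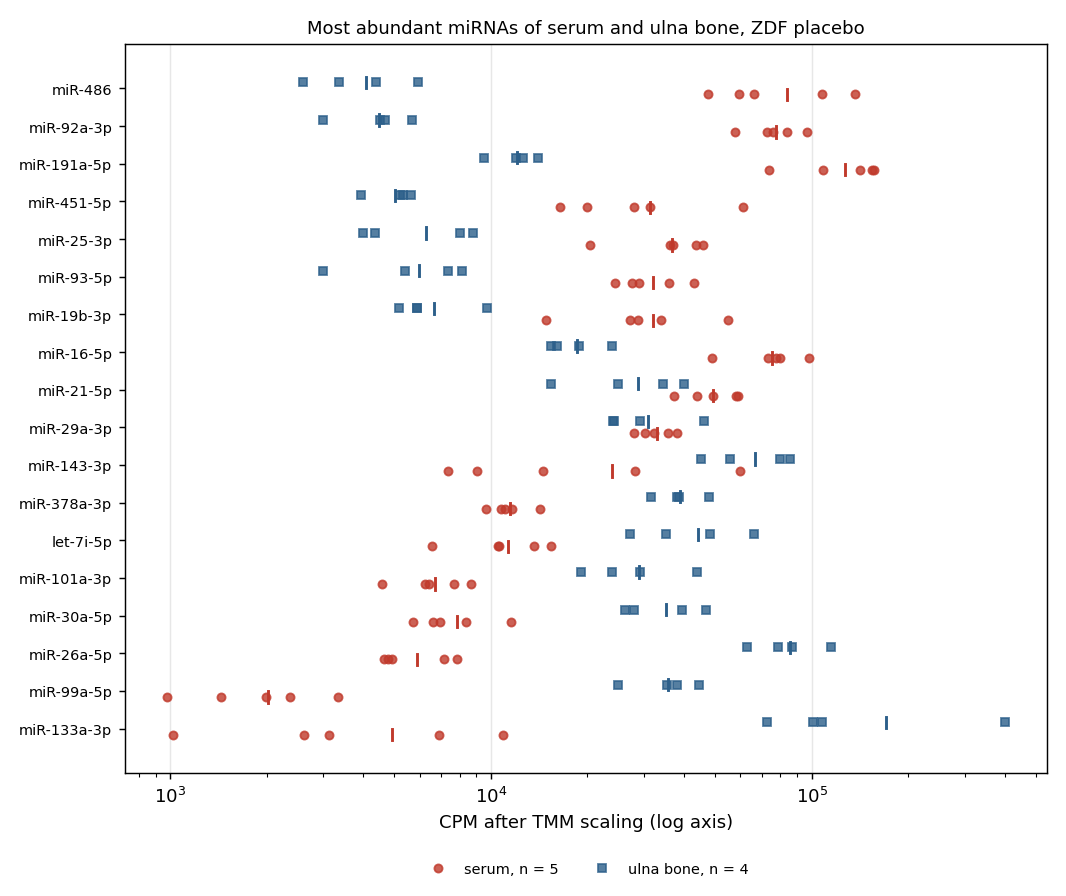
CPM after TMM scaling (x axis, log scale) of the miRNAs that were among the 10 most abundant in serum or in ulna bone of placebo-treated ZDF rats. Red circles are the 5 serum libraries, blue squares the 4 bone libraries and bars the group means. MiR-486, at the top, is higher in every serum library, and miR-133a-3p, at the bottom, is higher in every bone library, with bone replicate 2 at 399979 CPM far to the right.

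Hepatocyte miRNAs were among the largest differences, with almost no reads in bone. MiR-122-5p makes up most of the miRNA of a hepatocyte and takes part in its lipid metabolism. In serum it stood at 884, 57.4, 904, 1114 and 1066 CPM, 300 reads in all, and in bone at 5.44, 0, 0 and 4.67 CPM, 2 reads in all, a ratio of the pooled levels of 654 (95% exact interval of the counts 179.6 to 5428). Serum replicate 2 was far lower than the other serum libraries, with 57.4 CPM against at least 884. Its other arm, miR-122-3p, had 393, 138, 581, 275 and 779 CPM in serum and no read in bone, at least 239.9-fold higher in serum against a floor of 3 reads over the 4 bone libraries. MiR-802-5p, a liver miRNA known for its rise in obesity, had 1022, 207, 950.3, 747 and 1145 CPM in serum and 1 read in bone, a ratio of 1317 (95% exact interval of the counts 235 to 52205). Its lowest value was again serum replicate 2. Of the list of 4, these 3 were tested, and all 3 passed the filter only through serum, so that their number is no support of a direction. The summed share of the list was 0.0409 to 0.391% of the miRNA reads in serum. Intervals and floors cover counting error alone.

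MiR-192-5p and miR-375-3p were the single tested members of their lists and were higher in serum, the tissue through which they passed the filter. MiR-192-5p, which is abundant in liver, intestine and kidney epithelium, had 14499, 10379, 5757, 18737 and 5376 CPM in serum and 38.1, 26.8, 95.3 and 65.4 CPM in bone (log2 fold change 7.72 ± 0.59 (SE), FDR = 5.23e-08). Each serum library held more than every bone library. MiR-194 is expressed in the same organs, yet miR-194-5p had 6 reads in serum and 5 in bone and was not tested. MiR-375-3p, a regulator of insulin secretion in beta cells that is also made in gut and other neuroendocrine cells, had 5953, 4179, 2233, 3158 and 1559 CPM in serum and 54.4, 75.1, 23.8 and 103 CPM in bone (log2 fold change 5.66 ± 0.53 (SE), FDR = 1.89e-07). The lists held 5 and 10 miRNAs. Acinar miR-217-5p and miR-216a-5p had 2 and 0 reads in serum and 42 and 7 in bone, and bone replicate 4 held most of the former (149 CPM, at most 14.9 CPM in the other bone libraries). MiR-6216 was the remaining miRNA with no read in bone among the largest differences, at 118, 218, 46.1, 131 and 175 CPM in serum, at least 74.2-fold higher. It too passed the filter through serum alone.

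Of 4 erythroid miRNAs 3 were higher in serum. MiR-451-5p, which drives red cell maturation, had 31277, 28003, 61274, 19903 and 16399 CPM in serum and 5209, 3941, 5336 and 5639 CPM in bone (log2 fold change 2.64 ± 0.39 (SE), FDR = 1.46e-05), and miR-144-3p, from the same transcript, differed by 2.80 ± 0.54, FDR = 0.000195. With miR-486 these were the 3, and none was higher in bone, beside 35.6% and 38.6% of all 202. The median was 2.72, beside -0.21 over all tested. MiR-144-5p was not called (-0.28 ± 0.35, FDR = 0.467). Together they took 10.4, 16, 9.93, 13.5 and 10.3% of the miRNA reads in serum and 0.659 to 1.18% in bone. An index of red cell rupture in serum, miR-451-5p over miR-23a-3p on the log2 scale, was 1.2, 0.74, 1.41, 0.55 and -0.49 in the serum libraries, and its part in the tissue difference was not tested.

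MiRNAs of white cells did not move as a block. MiR-223-3p of granulocytes and monocytes was higher in serum, at 13124, 20908, 27135, 17558 and 12439 CPM against 1767, 1946, 2573 and 2873 CPM in bone (log2 fold change 2.99 ± 0.34 (SE), FDR = 1.15e-06). MiR-150-5p of mature lymphocytes was also higher in serum (1.95 ± 0.45, FDR = 0.000945), and so was its other arm, miR-150-3p (4.57 ± 0.60, FDR = 5.26e-06). The hairpin miR-142, active in all blood cells, went both ways. Its 5p arm had 2299, 6315, 4456, 8281 and 5631 CPM in serum and 212, 113, 135 and 135 CPM in bone (log2 fold change 5.19 ± 0.44 (SE), FDR = 7.72e-08), whereas its 3p arm had 569.7, 563, 572, 563 and 318 CPM and 1658, 711, 1398 and 827 CPM and was higher in bone (log2 fold change -1.14 ± 0.34 (SE), FDR = 0.00688). Without serum replicate 5, the lowest of serum, the 3p difference was -0.80, FDR = 0.0519. Of the 12 listed, 9 were tested, 4 were higher in serum, 1 in bone and 4 were not called, among them miR-155-5p and miR-146a-5p of activated leukocytes. The share higher in serum is near the 35.6% of all tested, and the median was 0.49. MiR-150-3p passed the filter through serum alone and had to be high there. MiR-146a-5p (0.49 ± 0.37, FDR = 0.233) passed toward serum without serum replicate 3 (0.86, FDR = 0.0458).

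Most members of the growth-associated clusters miR-17-92 and miR-106b-25 were higher in serum, beside 35.6% of all tested. All 6 tested members of miR-17-92 were higher in serum, from miR-19a-3p (2.07 ± 0.45, FDR = 0.000585) to miR-92a-3p, at a median of 3.01. MiR-17-5p, the member that gives the cluster its name, had 1395, 1998, 4521, 1939 and 1861 CPM in serum and 228, 182, 254 and 192 CPM in bone (log2 fold change 3.46 ± 0.41 (SE), FDR = 1.7e-06). The cluster took 10 to 13.4% of the miRNA reads in serum and 0.946 to 1.6% in bone. Of miR-106b-25, 4 of 5 tested were higher in serum (median 2.42) and miR-106b-3p was not called (-0.39 ± 0.39, FDR = 0.378). MiR-18a-5p, miR-106b-5p and miR-25-5p passed the filter through serum alone and had to be high there. Among members that met it in at least 4 libraries of both tissues, 5 of 5 and 2 of 3 were higher in serum. MiR-130b-3p, with neither cluster, was among the largest serum differences (4.37 ± 0.43, FDR = 3e-07), but also passed the filter through serum alone. Of 7 miRNAs often used as reference for scaling serum assays, 5 were higher in serum, none in bone, beside 35.6% and 38.6% of all tested. MiR-103-3p (-0.43 ± 0.26, FDR = 0.149) and miR-23a-3p (0.66 ± 0.35, FDR = 0.0981) were not called. MiR-103-3p passed toward bone without bone replicate 3 (-0.82, FDR = 0.0325) and with the muscle miRNAs left out (-0.62, FDR = 0.0396). MiR-23a-3p passed toward serum without serum replicates 1 (0.83, FDR = 0.0445), 3 (0.93, FDR = 0.0238) or 4 (0.86, FDR = 0.0434) or bone replicate 2 (1.13, FDR = 0.00378).

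Epithelial and neuronal lists were split, but part of the split was fixed by the filter. MiR-200a-3p, miR-141-3p and miR-429 passed it through serum alone and miR-9a-5p through bone alone, so each had to be high there. MiR-200a-3p, which keeps epithelial cells from turning mesenchymal, had 373, 677, 424, 747 and 716 CPM in serum and 92.4, 0.864, 15.9 and 14 CPM in bone (log2 fold change 4.46 ± 0.81 (SE), FDR = 0.000122), and its relatives miR-141-3p and miR-429 were called in the same direction, the last no longer so without bone replicate 4 (1.71, FDR = 0.0918). MiR-205 of basal epithelium and skin was higher in bone (log2 fold change -2.97 ± 0.40 (SE), FDR = 6.21e-06). MiR-203a-3p, also a skin miRNA, ranged from 366 to 7769.7 CPM in bone and was not called, and bone replicate 1 was the highest. That library also had the highest miR-200a-3p, miR-141-3p and miR-429 of the bone libraries, and its epithelial list took 0.881% of its miRNA reads against at most 0.349% in the other bones. Without it, miR-203a-3p was higher in serum (1.02, FDR = 0.046). Among 4 tested neuronal miRNAs, miR-128-3p, miR-138-5p and miR-132-3p were higher in serum and miR-9a-5p in bone (-2.50 ± 0.56, FDR = 0.000746). The call of miR-138-5p was lost without bone replicate 4 (0.98, FDR = 0.0572). MiR-128-3p, which is made in many tissues beside brain, was the most abundant at 11709, 14329, 26489.6, 13732 and 10864 CPM in serum. Brain-specific miR-124-3p had no read in serum, which allows up to 3 of its 391570 miRNA reads, and 23 reads in bone.

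**Figure D2:**
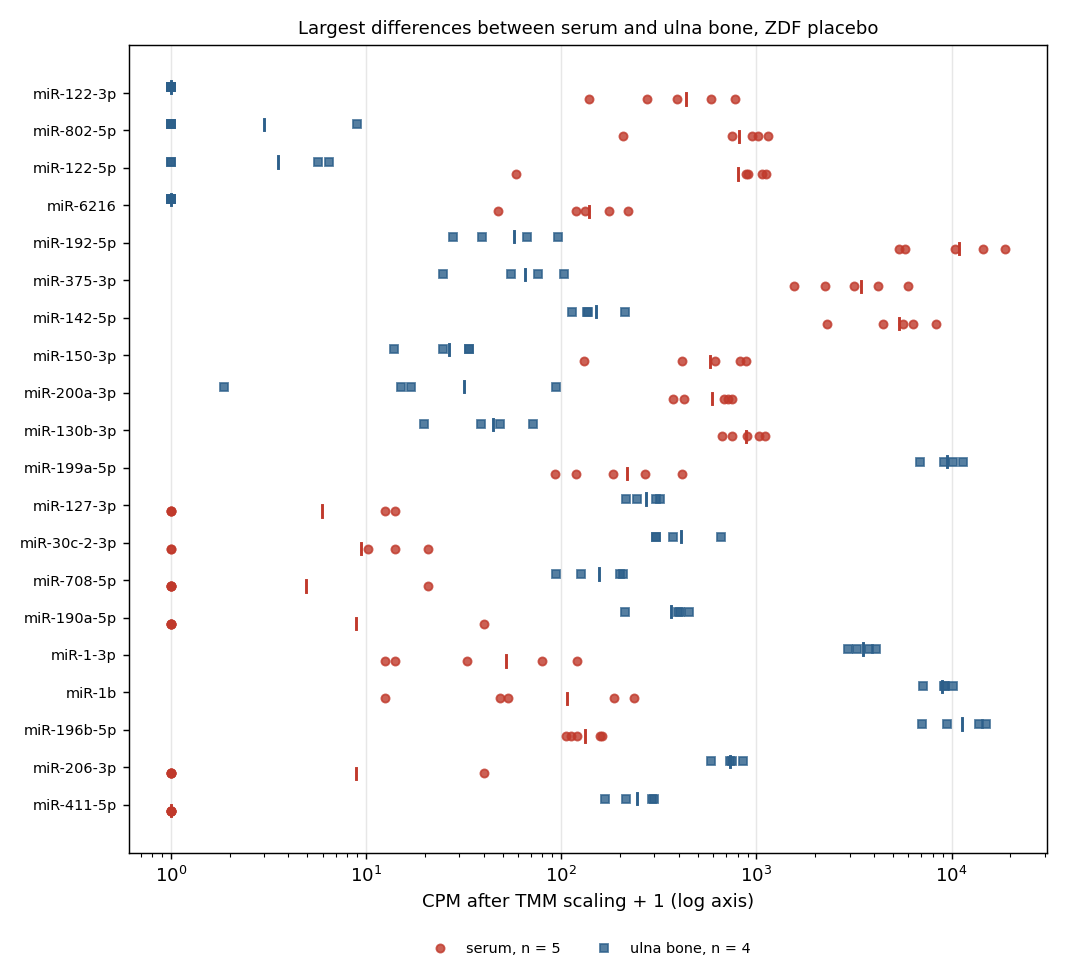
CPM after TMM scaling plus 1 (x axis, log scale) of the 10 largest called differences in each direction without overlap, among miRNAs averaging 100 CPM or more in the higher tissue. Red circles are the 5 serum libraries, blue squares the 4 bone libraries and bars the group means; points at 1 are libraries with no read. No miRNA has a serum point among its bone points, and miR-122-3p and miR-6216 lie at 1 in all 4 bone libraries.

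Striated muscle miRNAs were higher in bone in 6 of 7 cases tested. MiR-1b, which promotes muscle differentiation, had 9118, 9211, 7139 and 10133 CPM in bone and 236, 11.5, 185, 52.4 and 47.7 CPM in serum. MiR-1-3p, of the same seed and role, had 3757, 3293, 2938 and 4102 CPM in bone and 78.6, 11.5, 119.9, 13.1 and 31.8 CPM in serum. Without overlap, they were higher in bone by 6.41 and 6.05 on the log2 scale (FDR = 8.49e-08 and 7.72e-08). MiR-206-3p, specific to skeletal muscle, had 745, 587, 731 and 855 CPM in bone and 2 reads in serum, both in replicate 1, a ratio of 125.2 (95% exact interval of the counts 34.6 to 1035). MiR-133b-3p differed by -5.43 ± 0.71, FDR = 4.97e-06, and bone replicate 2 held 7151 CPM of it against at most 1421 in the others. Without that library the differences were -4.25, FDR = 2.09e-08 for miR-133b-3p, -6.40, FDR = 1.07e-10 for miR-1b and -6.07, FDR = 1.08e-10 for miR-1-3p. Of 11 listed, 7 were tested. Of these, miR-133a-3p alone met the filter in at least 4 libraries of both tissues, and those that met it through bone alone had to be high there, so that the count is no support of a direction. MiR-208b-3p, of slow and cardiac muscle, was not called (-1.38 ± 0.63, FDR = 0.0587). It passed with RLE, library totals and DESeq2 scaling and without serum replicates 1 (-1.57, FDR = 0.0445) or 3 (-1.96, FDR = 0.0104) or bone replicates 1 (-1.78, FDR = 0.0125), 3 (-1.67, FDR = 0.026) or 4 (-1.80, FDR = 0.0172). Cardiac miR-208a-3p had 4 reads in serum and none in bone.

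The muscle list took 11.1, 34.9, 13.1 and 9.14% of the miRNA reads in bone replicates 1 to 4 and 1.22, 0.252, 0.664, 0.329 and 0.148% in serum. Without bone replicate 2, 6 of 7 were likewise called higher in bone. With these miRNAs left out of the counts before scaling, an alternative chosen after seeing the data, 151 of 198 miRNAs differed, 68 higher in serum and 83 in bone, and 140 of the 144 calls that remained testable were kept. How much of each bone sample was attached muscle was not tested.

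Of 4 smooth muscle and 4 endothelial miRNAs tested, 2 each were higher in bone and none in serum, where 38.6% and 35.6% of all tested were. Among them, miR-143-5p passed the filter through bone alone and had to be high there. MiR-145-3p met it in all 4 bone libraries but in fewer than 4 serum libraries. The filter thus favoured bone for miR-145-3p, and its passing in that direction is no support of it. MiR-143-5p was higher in bone (-3.55 ± 0.56, FDR = 3.13e-05), while miR-145-5p, from the same transcript as miR-143, was not called at 10432, 5201, 9033, 3039.8 and 9957 CPM in serum and 3931, 11455, 7329.6 and 3349.6 CPM in bone (log2 fold change 0.21 ± 0.42 (SE), FDR = 0.668). MiR-145-3p (-1.43 ± 0.68, FDR = 0.0693) missed the threshold but passed toward bone with RLE, library totals and DESeq2 scaling, with muscle miRNAs left out and without serum replicate 1 (-2.02, FDR = 0.0124) or 3 (-1.64, FDR = 0.0422) or any 1 of the bone libraries (-1.73, FDR = 0.0185, -1.50, FDR = 0.0293, -1.78, FDR = 0.0259 and -1.80, FDR = 0.0256 for replicates 1 to 4), which makes 3 of 4. The summed share ranged widely in serum, from 1.04% in replicate 4 to 7.45% in replicate 1. Endothelial miR-126a-3p, which sustains vessel growth, had 17997, 27527, 22394 and 20107 CPM in bone and 4322, 4374, 6237, 2909 and 2752 CPM in serum (log2 fold change -2.42 ± 0.31 (SE), FDR = 4.04e-06), but miR-126a-5p was not called (0.14 ± 0.36, FDR = 0.748). MiR-222-3p was higher in bone (-1.08 ± 0.33, FDR = 0.00718) and its neighbour miR-221-3p was not called (0.04 ± 0.35, FDR = 0.913).

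Of the miRNAs of mesenchymal cells, from which osteoblasts derive, both arms of miR-199a were higher in bone and miR-214-3p was not called. MiR-199a-5p and miR-199a-3p, 2 arms of the same hairpins, lay apart in the tissues. The 5p arm had 11499.5, 10221, 9132 and 6900.2 CPM in bone and 118, 184, 268, 91.7 and 414 CPM in serum (log2 fold change -5.45 ± 0.42 (SE), FDR = 5.23e-08). The 3p arm had 3762, 4686, 7409 and 6517 CPM in bone and 373, 115, 249, 209.6 and 143 CPM in serum (log2 fold change -4.70 ± 0.40 (SE), FDR = 7.72e-08). MiR-214-3p, which restrains osteoblasts, stood at 354, 321, 369, 157 and 684 CPM in serum and 304, 989, 675 and 523 CPM in bone (log2 fold change -0.74 ± 0.43 (SE), FDR = 0.126), which overlapped. It passed toward bone without bone replicate 1 (-1.20, FDR = 0.0174) and with the muscle miRNAs left out (-0.95, FDR = 0.0497). Of 3 tested, 2 were called. The list was present in all 4 bone libraries, at 1.32 to 1.87% of the miRNA reads, against 0.0455 to 0.16% in serum. In WT bone it took 1.79 to 4.74%. Per the paper, miR-199a-3p is also high in fibroblasts, adipocytes and muscle cells, so it is not specific to bone.

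Cartilage miR-140 differed by arm. MiR-140-5p, which was low in serum at 236, 253, 323, 183 and 79.5 CPM, stood at 1348, 1220.2, 1263 and 1182 CPM in bone (log2 fold change -2.52 ± 0.36 (SE), FDR = 1.32e-05). MiR-140-3p, the abundant arm, was higher in serum at 22751, 31413, 25327, 34041 and 24241 CPM against 14626, 20139, 9418 and 13852 CPM (log2 fold change 0.92 ± 0.29 (SE), FDR = 0.00844). Its difference was 0.64 (FDR = 0.123) without bone replicate 1, 0.49 (FDR = 0.171) without bone replicate 3 and 0.65 (FDR = 0.119) without bone replicate 4. MiR-455-5p was higher in bone (-2.10 ± 0.55, FDR = 0.00251) and miR-455-3p was not called (-0.99 ± 0.71, FDR = 0.208), but passed toward bone without bone replicate 1 (-1.58, FDR = 0.0286). MiR-455-5p passed the filter through bone alone and had to be high there.

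MiR-196b-5p, which lies in a Hox cluster and marks posterior and limb identity, had the lowest p of the 202. It stood at 13876, 7017, 9489.6 and 15094 CPM in bone and 157, 161, 119.9, 105 and 111 CPM in serum (log2 fold change -6.44 ± 0.37 (SE), FDR = 2.74e-09). MiR-10b-5p, also of a Hox cluster, was higher in bone (-2.71 ± 0.35, FDR = 4.97e-06), miR-10a-3p higher in serum (3.15 ± 0.55, FDR = 8.1e-05) and miR-10a-5p not called (0.10 ± 0.50, FDR = 0.871). MiR-10a-3p passed the filter through serum alone and had to be high there. All 5 of the miR-99, miR-100 and miR-125 family were higher in bone, beside 38.6% of all tested, at a median of -3.75, where that of all tested was -0.21. MiR-125b-5p, a regulator of osteoblast and blood cell differentiation, had 8395, 16947, 14556 and 7036 CPM in bone and 589, 471, 378, 432 and 382 CPM in serum (log2 fold change -4.71 ± 0.35 (SE), FDR = 5.23e-08). Of the let-7 family, which promotes differentiation, 8 of 9 were higher in bone, beside 38.6% of all tested, at a median of -3.21. Let-7d-5p and let-7e-5p passed the filter through bone alone and had to be high there. Of the 7 that met it in at least 4 libraries of both tissues, 6 were higher in bone. Let-7g-5p was not called (-0.57 ± 0.36, FDR = 0.159), but passed toward bone without bone replicate 1 (-1.01, FDR = 0.0171) and with independent filtering (-0.79, FDR = 0.0489). The smallest called difference, that of let-7d-5p (-1.10 ± 0.45, FDR = 0.0373), was lost in 5 of the 9 fits that left out 1 library, at -0.79 (FDR = 0.107) without serum replicate 1, -0.78 (FDR = 0.134) without serum replicate 2, -0.94 (FDR = 0.103) without serum replicate 3, -0.98 (FDR = 0.0683) without bone replicate 2 and -1.01 (FDR = 0.0792) without serum replicate 5. Let-7f-5p had 15148, 19274, 17446 and 35781 CPM in bone and 1611, 1159.6, 1227, 1769 and 636 CPM in serum (log2 fold change -4.10 ± 0.37 (SE), FDR = 1.52e-07). Many let-7 members differ from another at 1 or 2 bases, so their separate levels are uncertain.

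The imprinted Dlk1-Dio3 cluster, expressed in embryo, brain and mesenchymal cells, took a larger share of the miRNA reads in every bone library than in any serum library. Of its 79 listed miRNAs, 63 had a read in bone and 22 in serum, where of all 763 miRNAs 530 had a read in bone and 400 in serum, at 1916794 and 391570 miRNA reads. It took 0.158 to 0.181% of the miRNA reads in every bone library and 0.00822 to 0.0182% in serum. The 3 that passed the filter did so only through bone, which fixed their direction, and are given as levels. MiR-127-3p had 304, 243, 214.4 and 318 CPM in bone and 2 reads in serum, a ratio of 49.5 (95% exact interval of the counts 13.6 to 410.2). MiR-136-3p had 195.7, 171, 143 and 178 CPM and 3 reads, a ratio of 22.2 (95% exact interval of the counts 7.51 to 108). MiR-411-5p had 299, 167, 214.4 and 289.6 CPM in bone and none in serum, at least 25.8-fold higher against a floor of 3 reads over the 5 serum libraries. Another 3 miRNAs outside the cluster were near absent from serum. They too passed the filter only through bone, which fixed their direction. MiR-190a-5p had 2 reads in serum and 689 in bone, a ratio of 79 (95% exact interval of the counts 21.8 to 653). MiR-708-5p had 1 and 306 reads, a ratio of 70.1 (95% exact interval of the counts 12.5 to 2779.6), and miR-30c-2-3p had 3 and 586 reads, a ratio of 44.8 (95% exact interval of the counts 15.2 to 218).

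Some abundant miRNAs did not separate the tissues. The miR-29 family, which limits collagen synthesis, had 3 tested members and none was called (median -0.42). MiR-29a-3p stood at 35757, 30311, 32284, 37972 and 27995 CPM in serum and 24065, 29234, 46185 and 24172 CPM in bone (log2 fold change 0.09 ± 0.28 (SE), FDR = 0.789). MiR-29b-3p and miR-29c-3p differed by -0.42 ± 0.42, FDR = 0.378 and -0.54 ± 0.29, FDR = 0.106. For miR-29c-3p the difference passed without bone replicate 1 (-0.80, FDR = 0.0325) and without bone replicate 4 (-0.90, FDR = 0.0151). Among miRNAs of at least 1000 CPM in both tissues, miR-24-2-5p (-0.01 ± 0.29, FDR = 0.962), miR-221-3p, miR-29a-3p, miR-203a-3p and miR-126a-5p had the smallest differences. Their SE ran from 0.28 to 0.62 on the log2 scale, so small differences were not detectable here.

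**Figure D3:**
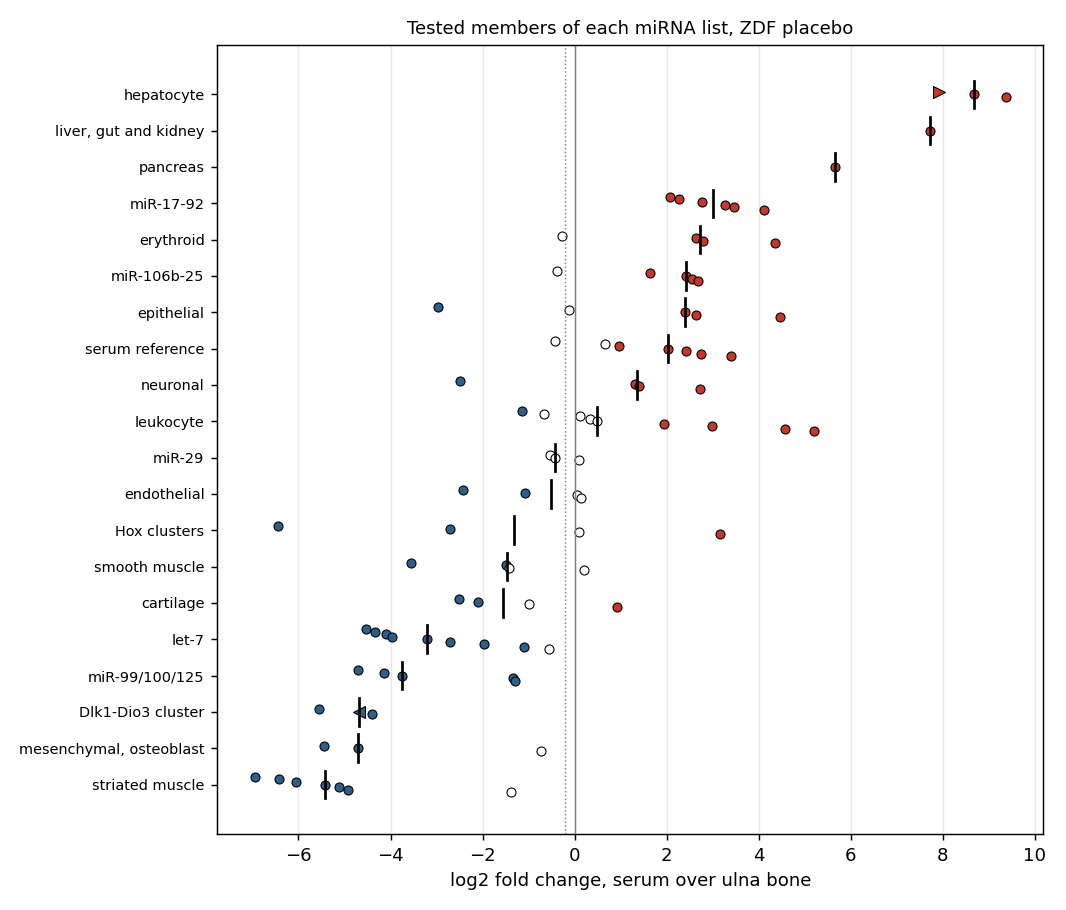
Log2 fold change, serum over ulna bone (x axis), of each tested member of 20 miRNA lists (y axis) in placebo-treated ZDF rats. Filled points passed FDR < 0.05 (red higher in serum, blue higher in bone), open points did not, triangles are miRNAs with no read in 1 tissue drawn at their bound, black bars are list medians and the dotted line is the median of all tested miRNAs, -0.21. MiR-206-3p of striated muscle lies farthest left, followed by miR-196b-5p of the Hox list and miR-1b, and the 3 miR-29 members lie near 0.

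MiRNAs with the same seed tend to share targets. Of the 182 with a RefSeq sequence, 73 shared their seed with another and formed 26 groups. In 12 groups all members were called in 1 direction and in 2 groups members were called in both. These counts are a description, where 35.6% of all tested were called higher in serum and 38.6% higher in bone. The first was the miR-15/16 family, with 5 members that had a RefSeq sequence, shown here.
miR-15b-5p: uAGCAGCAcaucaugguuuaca
miR-16-5p: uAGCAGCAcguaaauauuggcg
miR-195-5p: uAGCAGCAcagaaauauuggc
miR-322-5p: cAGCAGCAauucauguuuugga
miR-497-5p: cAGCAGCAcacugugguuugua

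MiR-15b-5p and miR-16-5p were higher in serum (4.06 and 2.03), and miR-195-5p, miR-322-5p and miR-497-5p in bone (-4.30, -2.20 and -2.12). MiR-15a-5p, by its name also of this family, had no RefSeq sequence and was likewise higher in serum (1.75 ± 0.33, FDR = 0.000139). MiR-15b-5p passed the filter on low counts through serum alone and miR-195-5p through bone alone, so each had to be high there. MiR-16-5p, miR-322-5p and miR-497-5p met it in at least 4 libraries of both tissues. MiR-16-5p and miR-195-5p, with a difference of opposite sign, differ at 2 of 21 bases. MiR-16-5p had 48880.4, 79520.3, 97885, 77502 and 73264 CPM in serum and 15376, 23909, 18765 and 16057 CPM in bone. MiR-195-5p had 58.9, 23, 64.6, 13.1 and 31.8 CPM in serum and 440.4, 965, 937 and 715 CPM in bone.

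The other was miR-27, whose members regulate fat and bone cell differentiation and differ at 1 of 21 bases.
miR-27a-3p: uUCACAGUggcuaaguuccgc
miR-27b-3p: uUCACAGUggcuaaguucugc

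MiR-27a-3p was higher in serum (0.78 ± 0.33, FDR = 0.0449) and miR-27b-3p in bone (-1.55 ± 0.31, FDR = 0.000286). The call of miR-27a-3p was close to the threshold, and its groups overlapped in CPM. Bone replicate 2 lay above serum replicates 1, 2 and 5. That this seed was called in both directions rests on this call. At 1 base apart, their reads may have been shared. Neighbours on the chromosome, taken from RefSeq as hairpins at most 10 kb apart, formed 20 groups with several tested hairpins, of which 3 had members called in both directions. In 1 of them miR-23b-3p and miR-27b-3p were higher in bone and miR-24-3p in serum, but mature miR-24-3p also comes from the miR-23a cluster. The other 2 groups were miR-322 with miR-351-5p, miR-450a-5p and miR-542-3p, and let-7a-1 with let-7d and let-7f, where miR-322-3p (1.32) and let-7d-3p (3.22) were higher in serum against the others that were called. Let-7d-3p passed the filter on low counts through serum alone and had to be high there. MiR-351-5p and let-7d-5p passed it through bone alone, and miR-450a-5p met it in all 4 bone but fewer than 4 serum libraries. Both arms of miR-322 met it in at least 4 libraries of both tissues. Without bone replicate 1, miR-24-3p was at 0.52, FDR = 0.169 and miR-322-3p at 0.88, FDR = 0.094, without bone replicate 3 at 0.71, FDR = 0.0671 and 1.08, FDR = 0.0617, and without bone replicate 4 miR-24-3p was at 0.71, FDR = 0.0717. The median GC content was 47.8% in the miRNAs higher in serum and 45.5% in those higher in bone. Across the 182 miRNAs GC content and log2 fold change had a weak correlation (Pearson r = 0.163, Spearman rho = 0.149), given as a description of miRNAs that share the same 9 libraries.

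The balance of the 2 arms of a hairpin does not depend on how libraries are scaled. It differed in 17 of 33 hairpins tested (51.5%, limma, FDR < 0.05), with relatively more 5p in serum in 6 and more 3p in serum in 11. In 5 hairpins 1 arm led in every serum library and the other arm in every bone library. MiR-142 had the largest difference: the log2 ratio of 5p to 3p reads was 1.99, 3.48, 2.95, 3.86 and 4.11 in serum and -2.95, -2.65, -3.33 and -2.59 in bone, a difference of 6.16 ± 0.51 (SE), FDR = 2.63e-08. For miR-126a it was 1.29, 0.64, 1.02, 0.74 and 0.71 in serum and -1.51, -1.31, -2.03 and -1.79 in bone, a difference of 2.54 ± 0.43 (SE), FDR = 0.00012. In both the 5p arm led in serum and the 3p arm in bone.

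The opposite held for let-7d and miR-322. Both arms of let-7d and of miR-142 are shown because the leading arm, and with it the seed, differed between the tissues.
miR-142-5p: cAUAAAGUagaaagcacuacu
miR-142-3p: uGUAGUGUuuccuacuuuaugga
let-7d-5p: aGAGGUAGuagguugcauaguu
let-7d-3p: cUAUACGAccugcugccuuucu

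Let-7d had log2 ratios of -2.50, -2.66, -1.08, -0.69 and -0.49 in serum and 4.56, 2.73, 1.97 and 3.57 in bone, a difference of -4.69 ± 0.62 (SE), FDR = 1.23e-05, from 36 reads of 5p and 92 of 3p in serum and 358 and 48 in bone. Its 3p arm passed the filter on low counts through serum alone and its 5p arm through bone alone. The filter thus favoured this direction, and the FDR of let-7d is no support of it. MiR-322, made with miR-503 and active in muscle differentiation, had -3.31, -1.99, -1.39, -1.77 and -0.18 in serum and 1.71, 1.83, 1.74 and 1.51 in bone, a difference of -3.43 ± 0.56 (SE), FDR = 8.4e-05. In miR-140 the 3p arm led in both tissues, but by more in serum, a difference of -3.59 ± 0.50 (SE), FDR = 1.63e-05. Asking for 10 reads of both arms in every library left 7 hairpins, of which 4 were called.

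**Figure D4:**
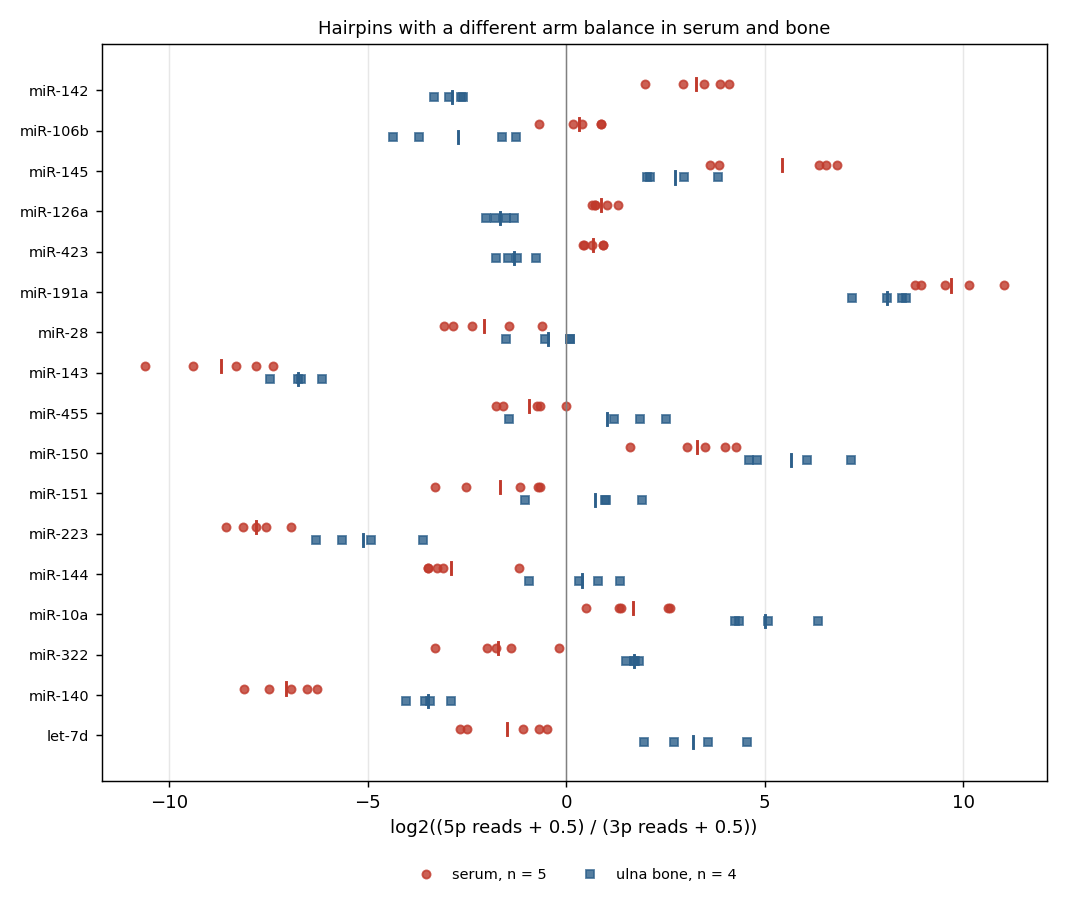
Log2 ratio of 5p to 3p reads with a pseudocount of 0.5 (x axis) for the 17 hairpins whose balance differed between serum and ulna bone at FDR < 0.05. Red circles are the 5 serum libraries, blue squares the 4 bone libraries and bars the group means; points right of 0 have more 5p than 3p reads. MiR-142, at the top, lies right of 0 in every serum library and left of 0 in every bone library, and let-7d, at the bottom, the other way round.

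Placebo-treated WT rats, which share no library with these groups, gave fold changes of the same direction. In them 148 of 222 miRNAs differed between serum and bone (66.7%). Of the 150 called in ZDF rats, 148 were tested in WT rats, all 148 had the same direction and 127 were called. Over the miRNAs tested in both and read in every group, 68 called higher in serum, 77 higher in bone and 51 not called in ZDF rats, the log2 fold changes had a Pearson r of 0.956 and a Spearman rho of 0.956 across miRNAs, which are not independent replicates. In the test of the difference itself, the interaction of tissue and genotype over 18 libraries, 0% of 229 miRNAs passed FDR < 0.05 with edgeR or with DESeq2 (lowest FDR 0.202 with edgeR and 0.0557 with DESeq2), and 22 had an unadjusted p under 0.05 in edgeR. The size of the log2 fold change was larger in ZDF than in WT rats for 60 of the 77 miRNAs called higher in bone and tested in both, and for 30 of the 68 called higher in serum, which was not tested. These miRNAs were chosen by their call in ZDF rats, which favours larger values there. The median interaction on the log2 scale was -0.22 with TMM and 0.04 with library totals. The part of scaling in these counts was not tested. With no filter beyond 1 read, 2 of 603 passed, miR-218a-5p and miR-217-5p (lowest FDR 0.0033), and without bone replicate 2 there was 1 of 234, miR-92b-3p (FDR = 0.0395).

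The 3 miRNAs with the smallest interaction p were miR-218a-5p, miR-411-5p and miR-1247-5p. MiR-218a-5p, which supports osteoblast and motor neuron differentiation, had 58.9, 11.5, 101, 26.2 and 47.7 CPM in ZDF serum and 140.2, 58.4, 1080.2, 237 and 226 CPM in WT serum, against 1098, 989.6, 1128 and 1145 CPM in ZDF bone and 985, 767, 906 and 582 CPM in WT bone. The tissue difference was -4.42 in ZDF rats and -1.21 in WT rats (edgeR interaction -3.28 ± 0.87, FDR = 0.202). WT serum replicate 3 lay above all 4 WT bone libraries. MiR-1247-5p had 118, 80.4, 83, 144 and 254 CPM in ZDF serum and 58.4, 11.7, 0, 29.6 and 15.6 CPM in WT serum, with 27.2, 11.2, 23.8 and 0 CPM in ZDF bone and 10.3, 8.5, 47.1 and 20.8 CPM in WT bone (edgeR interaction 3.27 ± 1.01, FDR = 0.202). MiR-411-5p, without a read in ZDF serum, had 11.7, 0, 34, 29.6 and 7.79 CPM in WT serum and 174, 191, 169 and 167 CPM in WT bone. The striated muscle list took 0.147, 0.232, 4.2, 1.2 and 2.12% of the miRNA reads in WT serum replicates 1 to 5, against 0.148 to 1.22% in ZDF serum, and 7.02, 13.6, 24.4 and 33.3% in WT bone. Its part in the genotype values was not tested. Without WT serum replicate 3, an alternative chosen after seeing the data, none of 230 passed and the interaction of miR-218a-5p was -2.09 (edgeR FDR = 0.389), and with no filter it was -3.19 and passed.

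**Figure D5:**
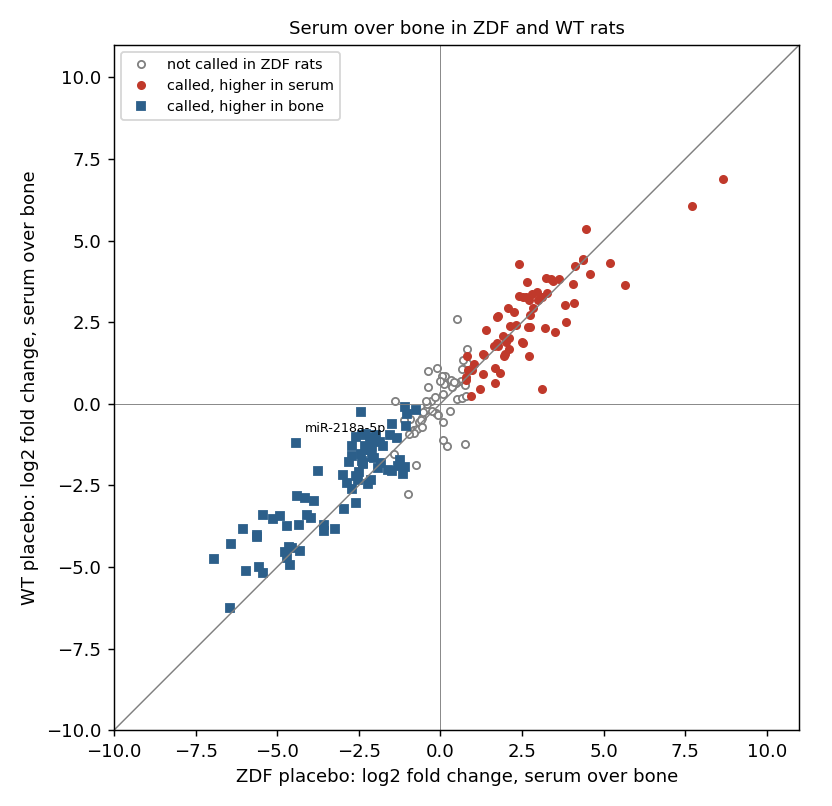
Log2 fold change, serum over ulna bone, in placebo-treated ZDF rats (x axis) and WT rats (y axis) for the miRNAs tested in both and read in every group (68 called higher in serum, 77 higher in bone and 51 not called); the line marks equal values. Red circles and blue squares were called in ZDF rats, open circles were not. Points called higher in serum lie in the upper right and those called higher in bone in the lower left, with none on the opposite side.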

How the data were processed

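The processed files held, for each library, the reads counted by the authors on each rat miRNA of miRBase. A deposited RPM column gives the same counts per reads of the whole library and served only to obtain the total reads of a library, and a further deposited score column, RPM on miRNA reads, was not analysed. Rows that name a control and no miRNA held 71.4 to 90.8% of the counts in serum and 0.693 to 8.18% in bone, and stayed out of library sizes and tests. Per the methods, RNA from 100 µl of serum or from ulna powdered with mortar and pestle was made into libraries with the same RealSeq-Biofluids kit, and 3 synthetic extraction controls were added to serum alone. The authors trimmed reads with cutadapt 3.3, kept those of at least 17 nucleotides, aligned them with bowtie 1.3.0 and miRDeep2 2.0.1.2 to the rat genome with 2 mismatches and to miRBase 22.1 with 1 mismatch, and tested with edgeR 3.32. Reads of near-identical miRNAs can be shared between them.

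Groups were taken from the labels, and no label pairs serum with bone. Counts were scaled by TMM, filtered with filterByExpr (at least 15 reads in all and 86.1 CPM in 4 libraries) and tested with edgeR 4.0.16 quasi-likelihood in R 4.3.3, with Benjamini-Hochberg adjustment over all miRNAs tested (FDR) and a threshold of 0.05. The interaction of tissue and genotype was fitted over 18 libraries. Log2 ratios of 5p to 3p reads (pseudocount 0.5) were tested with limma 3.58.1, and library measures with a two-sided exact permutation test over all 126 assignments. Replicates differed by more than counting noise, so none was merged. A level of 0 was set to a floor of 3 reads over the group, and intervals are exact at 95%. MiRNA reads per library ran from 48637 to 1398702. The scripts were tested on simulated data.

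Named are the 10 most abundant miRNAs of each tissue, the 10 largest called differences in each direction (no overlap, at least 100 CPM in the higher tissue), members of lists of tissue and cluster miRNAs, the 3 lowest p of the interaction, the 5 lowest p of the arm balance and the 5 smallest differences at 1000 CPM or more. MiRNAs named for their seed or their neighbours, for reads in 1 tissue only, and miR-194-5p, miR-217-5p, miR-216a-5p, miR-124-3p, miR-208a-3p and miR-92b-3p with their values, were picked after their values were seen. The comparison, the members and the lists were chosen with earlier results of these data known. Alternatives were other scaling, DESeq2 1.42.0, other filters and thresholds, the WT libraries in the same fit, and each library left out in turn. The libraries of treated rats were not used here.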

Additional observations from a re-analysis of the deposited data

Results flagged for a closer look

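In 16 of 212 groups of 4 or 5 libraries checked, 1 library lay far from the others in its group by Dixon's test, which chance gives in about 1 of 20 groups. Of the liver miRNAs, serum replicate 2 had 57.4 CPM of miR-122-5p, where the other serum libraries had 884 to 1114 CPM, and 207 CPM of miR-802-5p, where they had 747 to 1145 CPM. Bone replicate 3 had the 1 bone read of miR-802-5p (7.94 CPM). In bone replicate 2, miR-133b-3p of muscle stood at 7151 CPM beside 1028 to 1421 CPM. Serum replicate 1 held the reads of 3 miRNAs that were at 0 in the other serum libraries, with 39.3 CPM of miR-206-3p, 39.3 CPM of miR-190a-5p and 19.6 CPM of miR-708-5p. Its miR-103-3p was the lowest, at 7701 CPM beside 10472 to 11701 CPM. Serum replicate 2 had 0 CPM of miR-143-5p and of miR-455-5p, which stood at 26.2 to 83 and 39.3 to 92.3 CPM in the others. MiR-132-3p was low in serum replicate 3 (239.9 CPM beside 373 to 406 CPM). In serum replicate 5, miR-142-3p was low (318 CPM beside 563 to 572 CPM), and so was miR-25-3p (20424 CPM beside 36307 to 45782 CPM). In bone, miR-190a-5p was low in replicate 4 (210.2 CPM beside 397 to 449 CPM) and miR-221-3p in replicate 1 (1457 CPM beside 2173 to 2336 CPM). Bone replicate 3 held 311 miRNAs at equal depth, where the other bone libraries held 295.7 to 296.2. The extraction controls, added to serum alone, had 307319 to 574298 reads in the serum libraries and 8 to 19 reads in the bone libraries. What lies behind these values was not tested.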

How the results depend on the processing

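Of 2015 values recomputed for 105 named results, 1876 kept their direction and their side of the threshold, 47 fell short of it, 49 passed it and 43 changed sign. The 150 miRNAs called became 261 of 555 (103 higher in serum, 158 in bone) with every miRNA of at least 1 read tested, and 274 of 416 (107 and 167) with independent filtering, both of which test more miRNAs of low count. RLE scaling, library totals, DESeq2, robust or newer dispersions, the WT libraries in the fit and an FDR of 0.2 gave 148 to 174, a test for at least 2-fold (glmTreat) gave 59 higher in serum and 66 in bone, and leaving out 1 library gave 143 to 156. DESeq2 gave no adjusted p for miR-133b-3p. The interaction, with 0 calls, had 2 without the filter, miR-217-5p, which rests on bone replicate 4, and miR-218a-5p, and 0 to 1 with 1 library left out, the 1 being miR-92b-3p without bone replicate 2 (edgeR FDR = 0.0395). Hairpins called numbered 4 with 10 reads of both arms in every library (7 tested), 18 with a pseudocount of 1 and 12 to 16 with 1 library left out. The difference in miRNAs at equal depth ran from -21.6 to -14.9 with 1 library left out. Changes of sign befell 8 miRNAs that were not called, and the cause was not tested. With no filter, with independent filtering, with WT libraries and with muscle miRNAs left out, miR-10a-5p stood at -0.12, -0.12, -0.11 and -0.051, miR-126a-5p at -0.045, -0.045, -0.10 and -0.045, miR-221-3p at -0.18, -0.18, -0.20 and -0.14, and miR-29a-3p at -0.096, -0.096, -0.051 and -0.087. MiR-24-2-5p stood at 0.070 with RLE, 0.045 with library totals and 0.071 with DESeq2. With 1 library left out, values ran from -0.53 to 0.56 for miR-10a-5p, -0.28 to 0.49 for miR-126a-5p, -0.67 to 0.086 for miR-144-5p, -0.23 to 0.68 for miR-145-5p, -0.74 to 1.02 for miR-203a-3p, -0.41 to 0.31 for miR-221-3p, -0.31 to 0.29 for miR-24-2-5p and -0.24 to 0.39 for miR-29a-3p. MiR-145-3p and miR-208b-3p, not called, passed in 14 and 11 alternatives. No paired analysis was possible because no label links a serum to a bone library. Serum depth limits miRNAs below about 1 read, 9.23 to 19.6 CPM.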
